A study of Caenorhabditis elegans with 6 samples.

Results

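Patched proteins are large membrane proteins with a sterol-sensing domain. In flies and vertebrates, Patched binds the Hedgehog ligand and holds back the signalling protein Smoothened. The worm Caenorhabditis elegans has no clear Smoothened, yet it keeps patched genes, a large set of patched-related (ptr) genes and many secreted hedgehog-related proteins. In the worm these proteins are known for work at membranes and apical surfaces: germ cell division, moulting, the laying down of cuticle and precuticle matrix, sterol handling and the shaping of narrow tubes.

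Described here are 10 of these genes among the 21951 genes of the deposited count table: ptc-1, ptc-3, ptr-2, ptr-4, ptr-5, ptr-8, ptr-22, ptr-23, daf-6 and che-14. They were taken by gene identifier, not by their values, though earlier results of these data were known when the set was chosen. All 10 were found, all 10 had reads in every library, and all 10 passed the filter on low counts. Whole wild-type animals, labelled young adult and described as gravid, were compared without exposure (control, 3 libraries) and after 24 h in 100 mM ethyl carbamate (3 libraries). Ethyl carbamate, also known as urethane, arises during fermentation of food and drink. The titles of the control samples and the column names of both groups carry the letters EV, which the labels do not explain. RNA of all tissues, and of embryos carried inside the animals, was pooled in each library.

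Control libraries held 19026133 to 22416213 counts and exposed libraries 20176242 to 21258740. Of the 14705 genes tested, 76.3% differed between the groups, with 40.0% called higher after exposure and 36.3% called lower (edgeR's quasi-likelihood test, Benjamini-Hochberg adjusted p under 0.05). A called change is therefore common in these libraries, and sizes say more than calls. With the scaling of the main analysis (TMM), rare transcripts rose as a whole and abundant ones fell. The median log2 fold change was 0.43 for tested genes with a mean log2 CPM (CPM is a gene's count scaled to the size of its library) of 2 to 4, −0.04 at 4 to 6, −0.25 at 6 to 8 and −0.40 above 8. Scaling by library size only raised the median of all tested genes by 0.19, and medians by abundance were not computed for it.

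After ethyl carbamate, transcripts of 8 of the 10 genes rose and those of 2 fell. The 2 that fell, ptc-1 and ptr-2, were the most abundant of the set, while rises included ptr-22, up 17.9-fold, ptr-4, up 6.28-fold, and the glial tube gene daf-6, up 4.69-fold. Over the 10 genes the median log2 fold change came to 1.78, against 0.05 for all tested genes. Of the 8 rises, 7 were at least 2-fold, and 23.8% of all tested genes were called higher at that size. Neither fall was 2-fold, while 3.34% of tested genes were called lower by at least that much. In CPM, none of the 10 genes had exposed libraries that overlapped with controls, which was also so for 77.8% of all tested genes (40.8% with the exposed libraries higher and 37.1% with them lower). In whole-animal RNA, fewer or more cells of a type and less or more RNA per cell cannot be told apart.

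**Figure D1:**
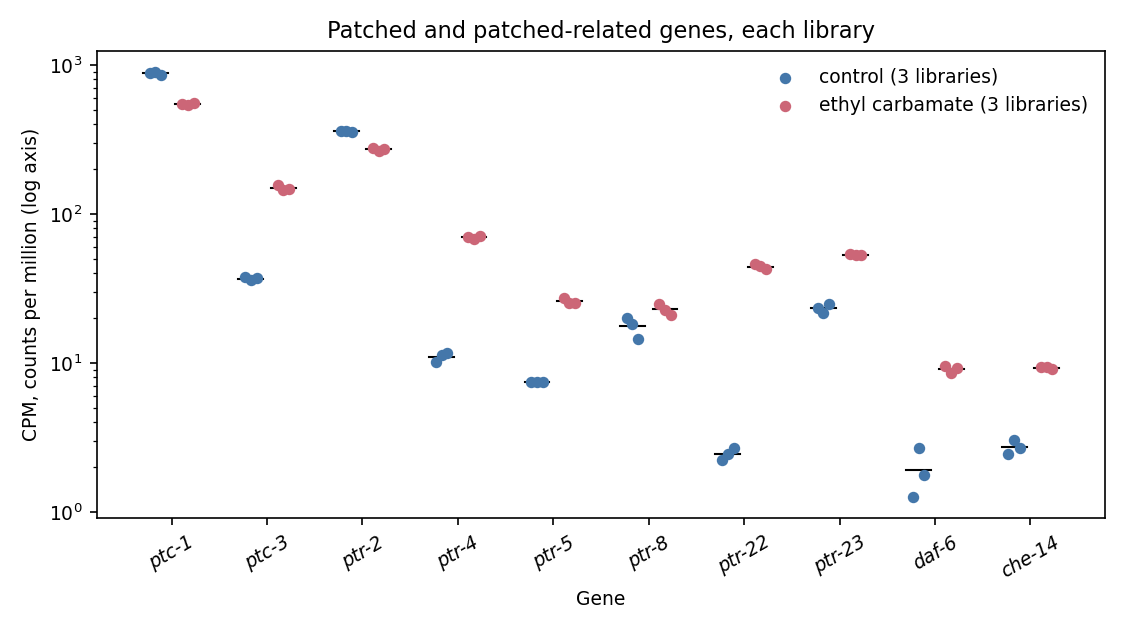
CPM (log axis) of the 10 genes in each library, with control libraries in blue, ethyl carbamate libraries in red and a line at each group's mean. Only ptc-1 and ptr-2 lie lower after exposure; the narrowest gap is that of ptr-8, between 20.02 and 20.99 CPM.

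The first of the genes that fell, ptc-1 (ZK675.1, chromosome II, 7893229 to 7900484), is one of the worm's Patched orthologs and is known to be needed for cytokinesis in the germline. Its transcripts stood at 884, 894 and 852 CPM in control replicates 1 to 3 and at 549, 536 and 550 CPM in the exposed replicates. Every exposed library lay more than 300 CPM below every control library. The mean fell from 877 ± 21.7 to 545 ± 7.51 CPM (SD, n = 3 per group here and below), or −0.69 ± 0.04 as log2 fold change and its standard error (edgeR adjusted p = 1.73e-12).

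The patched-related gene ptr-2 (C32E8.8, chromosome I, 3789306 to 3792797) had 359, 360 and 352 CPM in the controls and 276, 265 and 273 CPM in the exposed animals. The groups were far apart for so small a change, since libraries of a group differed by less than 12 CPM. On the log2 scale it fell by 0.40 ± 0.04 (standard error; edgeR adjusted p = 4.65e-09), close to the median of −0.40 of all tested genes above a log2 CPM of 8. That of ptc-1 lay below it. Both falls kept their call but were smaller under 2 alternatives. With scaling by library size only they were −0.205 for ptr-2 and −0.495 for ptc-1, and on quantile-normalized FPKM −0.18 and −0.48. Germline genes fell alongside both. All 15 germline markers tested were called lower (median log2 fold change −0.44), and their summed level went from 7670 to 8236 CPM in the controls to 5449 to 5561 CPM in the exposed libraries. In the abundance ranges of these markers, 6 to 8 and over 8 (log2 CPM), 70.5% and 77.7% of all tested genes were called lower. With scaling by library size only, 14 of the 15 markers were called lower, as on quantile-normalized FPKM. The exception was htp-3 in both runs. The part of the germline fall in the falls of ptc-1 and ptr-2 was not tested.

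Among genes that rose, ptr-22 (Y80D3A.7, chromosome V, 18919234 to 18931381), a patched-related membrane protein, changed most. It was nearly silent in the controls, at 2.24, 2.46 and 2.67 CPM, and reached 45.8, 44.4 and 42.4 CPM after exposure. Behind these values were 39 to 57 reads per control library and 953 to 1009 per exposed library. This is a log2 fold change of 4.16 ± 0.10 (standard error; edgeR adjusted p = 5.81e-19), and 0.619% of tested genes had a higher one. On the compressed log2(FPKM + 1) scale the value was 3.14, and on quantile-normalized FPKM it was 3.05. The gene overlaps a noncoding RNA gene, Y80D3A.13, on the opposite strand in the Ensembl annotation.

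For ptr-4 (C45B2.7, chromosome X, 6060757 to 6065986), whose product organises the precuticle, the apical matrix that precedes a new cuticle, control libraries gave 10.1, 11.27 and 11.7 CPM. Exposed libraries gave 70.0, 67.7 and 70.9 CPM. The spread within each group was small beside this gap, and the log2 fold change reached 2.65 ± 0.065 (standard error; edgeR adjusted p = 1.91e-18).

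The second Patched ortholog, ptc-3 (Y110A2AL.8, chromosome II, 2845378 to 2852593), is essential for larval growth and moulting and has been linked to sterol export. It went the opposite way to ptc-1, from 37.6, 35.8 and 36.997 CPM to 157, 145 and 146 CPM. This was a 4.06-fold rise, or 2.02 ± 0.05 as log2 fold change and its standard error (edgeR adjusted p = 5.98e-19). Tested genes of its abundance, at a log2 CPM of 6 to 8, had a median of −0.25 and an upper quartile of −0.03, and 9.29% of all tested genes rose more. Like ptr-22, it overlaps a noncoding RNA gene on the opposite strand. Whether reads were counted by strand is not given in the sources used here.

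Both ptr-5 and ptr-23 also had control and exposed libraries that lay wide apart. The ptr-5 gene (C53C11.3, chromosome X, 17318584 to 17326603) had 7.46, 7.42 and 7.41 CPM in the controls and 27.5, 25.2 and 25.4 CPM after exposure, a 3.50-fold rise (log2 fold change 1.81, standard error 0.09, edgeR adjusted p = 6.95e-14). The ptr-23 gene (ZK270.1, chromosome I, 14909240 to 14913073) is known to act in the epidermis with osm-8, a mucin-like gene that restrains the osmotic stress response. Its transcripts went from 23.5, 21.5 and 24.8 CPM to 54.2, 52.9 and 53.04 CPM, a 2.29-fold rise (log2 fold change 1.198, standard error 0.06, edgeR adjusted p = 2.61e-13). Its partner osm-8 rose 6.94-fold in the same libraries.

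The smallest rise was that of ptr-8 (F44F4.4, chromosome II, 10889279 to 10893277). Controls had 20.02, 18.2 and 14.5 CPM and exposed libraries 24.8, 22.8 and 20.99 CPM, so that the highest control and the lowest exposed library were nearly level. In the authors' FPKM these libraries overlapped, at 7.37884 in control replicate 1 and 7.37867 in exposed replicate 3. In the Ensembl annotation the gene overlaps sra-10 on the opposite strand. By the deposited coordinates, sra-10 starts at 10893351, past the end of ptr-8. For ptr-8 the log2 fold change of 0.39 (standard error 0.10, edgeR adjusted p = 0.00126) was not called by limma on log2(FPKM + 0.5), at an adjusted p of 0.0535. On quantile-normalized FPKM its direction turned, at −0.17 with a limma adjusted p of 0.257. Of the rest of the set, none changed direction or lost its call under any alternative run.

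The gene daf-6 (F31F6.5, chromosome X, 14888487 to 14894326) encodes a patched-related protein that limits the lumen of the channel that glia form around sensory endings. It was the rarest of the 10, with 22, 56 and 38 reads in control replicates 1 to 3, or 1.26, 2.698 and 1.78 CPM. After exposure it had 203, 196 and 208 reads, or 9.51, 8.62 and 9.25 CPM. The controls differed among themselves by more than the exposed libraries did, and the highest control stayed well below the lowest exposed library. As log2 fold change this was 2.23 ± 0.19 (standard error; edgeR adjusted p = 1.03e-09), and 2.02 to 2.55 with 1 library left out.

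The tenth gene, che-14 (F56H1.1, chromosome I, 5746725 to 5754278), is the worm's relative of Dispatched, the transporter that releases Hedgehog in flies, and is known for apical secretion and sorting in epithelia and for amphid morphology. It went from 2.47, 3.04 and 2.67 CPM to 9.33, 9.32 and 9.16 CPM, with the exposed libraries almost equal to one another. It rose by 1.76 ± 0.14 on the log2 scale (standard error; edgeR adjusted p = 5.68e-10). At their abundance, a log2 CPM of 2 to 4, the upper quartile of all tested genes was 1.28, below both che-14 and daf-6.

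On quantile-normalized FPKM the rises of ptr-5, daf-6, che-14 and ptr-4 kept their direction and call but were smaller by over 1.5 times in fold for the first 3, at log2 fold changes of 1.01, 0.97 and 0.71, and stood at 2.11 for ptr-4. The authors' deposited table gives the same direction for all 10 genes, with log2 fold changes from −0.74 for ptc-1 to 4.11 for ptr-22.

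**Figure D2:**
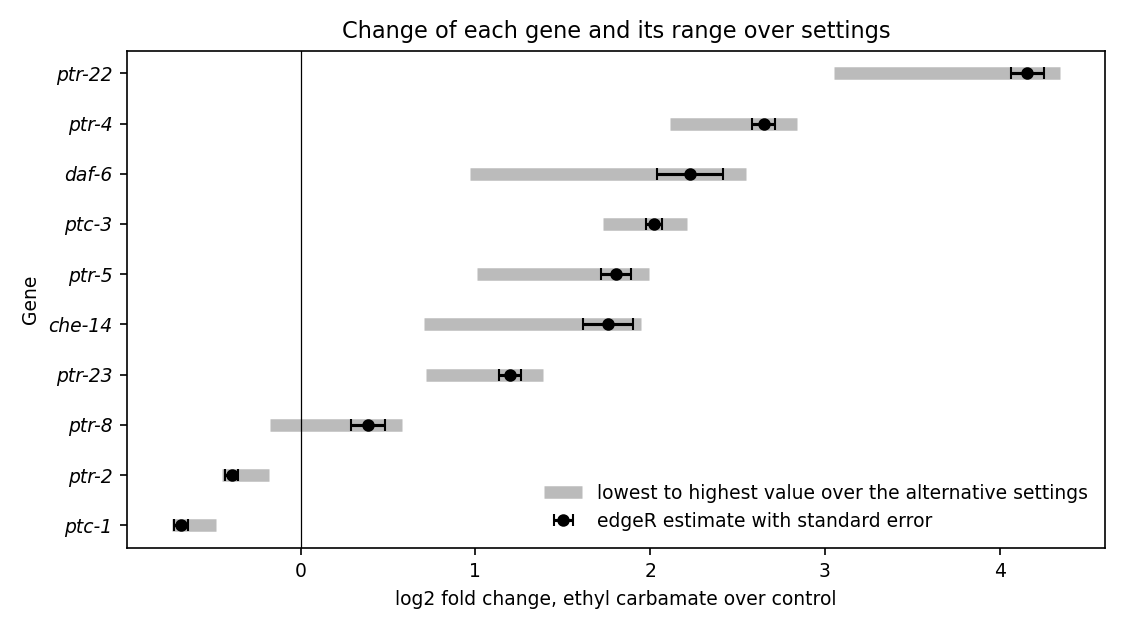
The log2 fold change of each gene, ethyl carbamate over control: black points and bars are the edgeR estimate and its standard error, and grey bars run from the lowest to the highest value over the alternative settings. Grey bars of 9 genes stay on one side of 0, while that of ptr-8 runs from −0.17 to 0.58.

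**Figure D3:**
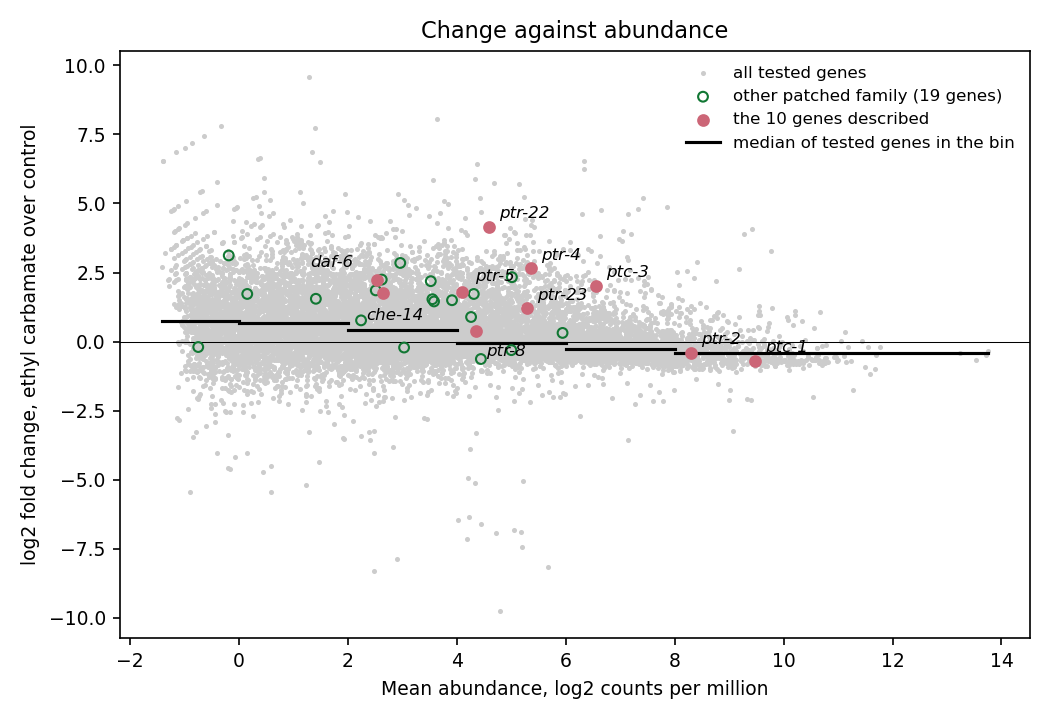
Log2 fold change against mean abundance (log2 CPM) for all tested genes (grey), the other patched family genes (green rings) and the 10 genes described (red), with black lines at the median of tested genes in each abundance bin. The lines fall from 0.76 in the rarest genes to −0.40 in the most abundant; ptr-22, ptr-4 and ptc-3 lie far above the line of their bin and ptr-2 lies on it.

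Levels per gene length, as the authors' FPKM (fragments per kilobase of gene, scaled to sequencing depth), put ptc-1 and ptr-2 far above the other 8 genes in the controls, at 178 ± 5.03 and 125 ± 2.26 FPKM. Next came ptc-3 at 8.38 ± 0.27, ptr-23 at 7.22 ± 0.52, ptr-8 at 6.42 ± 1.07, ptr-4 at 3.61 ± 0.25 and ptr-5 at 2.15 ± 0.02 FPKM. The lowest were che-14 at 0.96 ± 0.10, ptr-22 at 0.91 ± 0.07 and daf-6 at 0.67 ± 0.25 FPKM. Libraries overlapped between the neighbours ptr-23 and ptr-8, che-14 and ptr-22, and ptr-22 and daf-6, and the other neighbours in this order did not overlap.

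After exposure the levels lay closer together. In the exposed libraries ptc-1 was at 107 ± 1.78 FPKM and ptr-2 at 91.8 ± 2.22, while ptc-3 reached 32.8 ± 1.56 and ptr-4 reached 21.9 ± 0.57. The ptr-22 gene moved from the ninth place to the sixth, at 15.8 ± 0.66 FPKM, where it overlapped ptr-23 at 15.97 ± 0.28. Below them ptr-8 and ptr-5 overlapped at 8.05 ± 0.69 and 7.25 ± 0.38 FPKM, as did che-14 and daf-6 at 3.13 ± 0.04 and 3.06 ± 0.17. The share of ptc-1 and ptr-2 in the summed FPKM of the 10 genes was 90.8% to 91.1% in the controls and 64.2% to 65.3% after exposure. The other 8 genes together went from 29.8 to 31.1 FPKM in the controls to 106 to 112 FPKM, and the sum of all 10 from 325 to 339 FPKM to 300 to 314 FPKM.

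**Figure D4:**
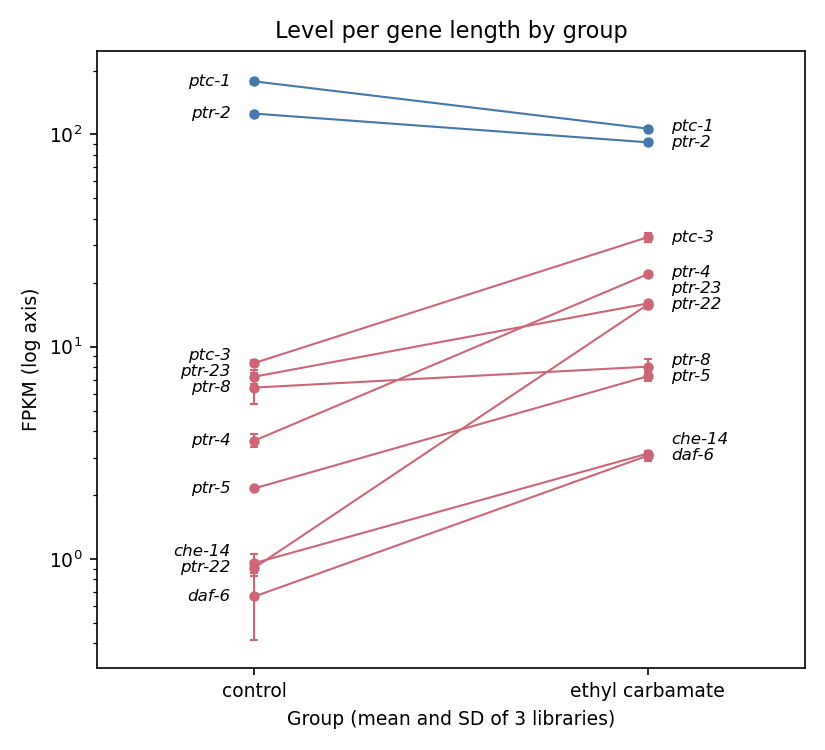
Level per gene length (authors' FPKM, log axis) of the 10 genes in control and ethyl carbamate animals, as mean and SD of 3 libraries, with genes that went up in red and genes that went down in blue. The 2 blue lines start at 178 and 125 FPKM; ptr-22 crosses 3 other lines as it climbs from 0.91 to 15.8 FPKM.

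The genes lie on 4 chromosomes, with 3 on chromosome I, 3 on II, 1 on V and 3 on X. The 3 on X, ptr-4, ptr-5 and daf-6, all rose, and 59.9% of the 2241 tested genes of chromosome X were called higher, against 32.2% of chromosome I and 36.7% of chromosome II. Genes of chromosome X had a median log2 fold change of 0.51. By the Ensembl models the proteins of ptc-1 and ptc-3 have 1408 and 1367 residues and those of the other 8 genes 888 to 983.

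Most other genes of the family were also called higher, beside 40.0% of all tested genes. Of 19 other patched family genes (ptc-2, ptd-2 and 17 ptr genes), all of them tested, 15 were higher and 2 lower (median log2 fold change 1.53). Quantile-normalized FPKM gave 9 higher and 3 lower among 16 (median 0.69). With the 10 genes above, 23 of 29 were called higher, 4 lower and 2 neither. In the controls the 5 genes of the family with the highest level per length were ptc-1, ptr-2, ptr-21, ptr-24 and ptr-13, and 4 of these 5 were the family's 4 falls. The exception was ptr-21, at 16.8 FPKM in the controls and 20.1 FPKM after exposure, which rose by 0.31 on the log2 scale and was not called on quantile-normalized FPKM (0.08, limma adjusted p = 0.229).

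By size the leading rises were ptr-19, ptr-18, ptr-10, ptr-16 and ptr-15, with ptr-9 above them on few reads. Transcripts of ptr-9 rose from 9 reads over the 3 control libraries to 90, 8.94 times as many after scaling (95% exact counting interval 4.51 to 20.2). Those of ptr-19 rose 7.19-fold to 13.1 ± 1.01 CPM and those of ptr-18 rose 5.03-fold to 52.5 ± 1.26 CPM. The ptr-10 gene, widely used as a marker of glia, rose 4.74-fold to 9.74 ± 1.16 CPM. The rises of ptr-16 and ptr-15 were 4.55-fold and 3.61-fold. All of these but ptr-9 overlap a gene on the opposite strand in the Ensembl annotation.

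Against them, ptr-13 fell 1.55-fold, from 26.5 ± 1.33 to 17.1 ± 1.23 CPM, and ptr-24 fell 1.24-fold, from 35.4 ± 1.24 to 28.6 ± 0.66 CPM. The fall of ptr-24 was not called with scaling by library size only (edgeR adjusted p = 0.0946). Not called were ptr-12, at 8.69 ± 0.62 and 7.52 ± 1.24 CPM, and ptc-2, which RefSeq annotates as a pseudogene, at 0.53 ± 0.16 and 0.47 ± 0.12 CPM. One more gene that RefSeq names in this family, ptr-25 (F43D9.1, chromosome III, 10488128 to 10500267), was outside the list and was added after its values were seen. It had 167, 204 and 235 reads in the controls and 2564, 2871 and 2746 after exposure, a 12.1-fold rise to 123 ± 3.11 CPM (edgeR adjusted p = 3.61e-21).

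The hedgehog-related proteins, secreted by epidermal and other cells, fall into families named warthog (wrt), groundhog (grd), ground-like (grl), hog and qua. The count table held 58 such genes. Tested were 44, of which 35 were higher and 4 lower (median log2 fold change 1.54), beside 40.0% and 36.3% of all tested genes. At a log2 CPM of 0 to 2 and of 2 to 4, 52.9% and 55.3% of all tested genes were higher. At least 2-fold rises among the ligands numbered 29 and falls of that size 3, beside 23.8% and 3.34% of all tested genes. Quantile-normalized FPKM gave 26 higher and 4 lower among 35. Their summed level was 279 to 310.5 CPM in the controls and 814 to 844 CPM in the exposed libraries, well apart.

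Of the single genes, wrt-1 was abundant enough to be read with little error, and rose 9.04-fold from 11.1 ± 1.83 to 101 ± 0.39 CPM. The grd-16 gene went from 23 reads over the controls to 475, 18.5 times as many (counting interval 12.2 to 29.4). For grl-13, 5 control reads stood against 59, 10.5 times as many (interval 4.27 to 33.7). The genes grl-1 and grl-6 rose 9.47-fold and 9.39-fold to 8.97 ± 0.90 and 3.20 ± 0.61 CPM. Both grd-16 and grl-1 overlap a gene on the opposite strand in the Ensembl annotation. The grd-17 locus, with the largest ratio, had 1 control read in all, in control replicate 2, and 318 exposed reads.

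Falls among these genes were seen in grl-22, grd-2, grd-4 and grd-3. The first 3 were rare, with 28, 24 and 44 reads over the exposed libraries against 66, 56 and 99 over the controls, and fell 2.62-fold, 2.58-fold and 2.50-fold. The more abundant grd-3 fell 1.24-fold, from 36.1 ± 1.39 to 29.2 ± 1.74 CPM, and was not called with scaling by library size only (edgeR adjusted p = 0.112).

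**Figure D5:**
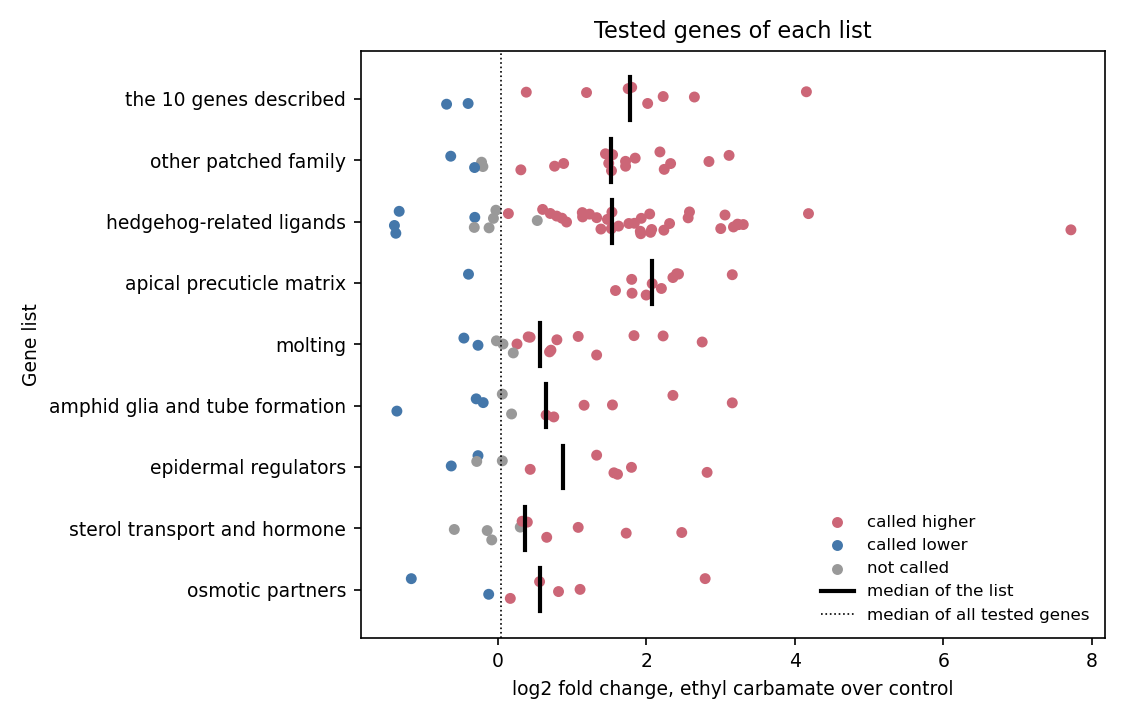
Log2 fold change of each tested gene in the 10 genes described and in 8 other lists, coloured by call, with a bar at each list's median and a dotted line at the median of all tested genes (0.05). Medians of the patched family, the hedgehog-related ligands and the precuticle matrix lie between 1.53 and 2.08, and those of the other 5 lists between 0.37 and 0.89.

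Genes of the precuticle matrix, the layer that ptr-4 helps to organise, rose with it. Of 11 tested, 10 were higher and 1 lower (median log2 fold change 2.08), and 10 and 1 were also counted with scaling by library size only and on quantile-normalized FPKM. Beside this list and those that follow, 40.0% of all tested genes were called higher and 36.3% lower. The zona pellucida domain gene dyf-7, which anchors sensory dendrite tips, rose 8.94-fold to 24.02 ± 1.204 CPM. The lipocalin genes lpr-1 and lpr-3 rose 5.41-fold and 5.32-fold, the second to 136 ± 5.68 CPM. The leucine-rich repeat gene egg-6 fell 1.31-fold, from 514 ± 16.6 to 392 ± 11.03 CPM.

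Partners of daf-6 and che-14 in the amphid, the main chemosensory organ of the head, were mixed. Of 11 genes of amphid glia and tube formation 6 were higher, 3 lower and 2 not called (median 0.65). After dyf-7, which is also in this list, dex-1 rose 5.14-fold to 77.02 ± 2.32 CPM and nas-6 rose 2.92-fold. Like dyf-7, dex-1 is counted in the precuticle list as well. The sheath glia gene vap-1 fell 2.56-fold, from 6.10 ± 0.64 to 2.38 ± 0.27 CPM. Small falls of snx-1, 1.22-fold, and of mom-4, 1.14-fold, were not called with scaling by library size only.

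Of 16 moulting genes 11 rose and 2 fell (median 0.57), and on quantile-normalized FPKM 8 and 5. The gene mlt-9 rose 6.75-fold to 65.1 ± 5.41 CPM, mlt-11 4.69-fold to 204 ± 1.67 CPM and mlt-8 3.57-fold to 89.9 ± 0.66 CPM. The kinase gene nekl-2 fell 1.37-fold. The nuclear receptor gene nhr-23, which drives larval moults, fell by 0.26 on the log2 scale, from 63.2 ± 4.53 to 52.6 ± 0.41 CPM, and was not called with scaling by library size only (edgeR adjusted p = 0.220). Of 10 regulators of epidermal fate and timing, nhr-23 again among them, 6 were higher and 2 lower (median 0.89). The epithelial factor grh-1 rose 7.07-fold to 50.7 ± 2.75 CPM, blmp-1 rose 3.49-fold and elt-3 rose 3.06-fold, while lin-41, abundant in the germline, fell 1.54-fold to 270.2 ± 12.1 CPM.

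Of 10 sterol genes tested 6 were higher and none lower, and median-ratio scaling called 6 higher and 2 lower. Their median of 0.37 turned to −0.05 on quantile-normalized FPKM, where 3 rose and 2 fell among 8. The sterol methyltransferase gene strm-1 rose 5.58-fold to 15.5 ± 0.69 CPM and dhs-16 rose 3.32-fold. The gene lrp-1, for a megalin-like receptor that epidermis needs for moulting on sterol, rose 2.12-fold to 129 ± 4.52 CPM. It is also counted among the moulting genes. Not called were other genes with a sterol-sensing domain, the Niemann-Pick genes ncr-1 and ncr-2 and scp-1, with log2 fold changes of −0.14, 0.31 and −0.08. Around ptr-23, 5 of 7 osmotic genes, osm-8 among them, were higher and 2 lower. DESeq2 and limma on log2(FPKM + 0.5) each called 4 higher and 2 lower. Beside osm-8, osm-7 rose 2.16-fold and hmit-1.1 rose 1.77-fold in the main run, while gpdh-1, which makes glycerol, fell 2.24-fold from 10.8 ± 1.71 to 4.79 ± 0.84 CPM. For gpdh-2 the log2 fold change was −0.12 and turned to 0.07 with scaling by library size only and to 0.09 on quantile-normalized FPKM.

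Markers of several somatic tissues were higher in the same libraries, beside 40.0% of all tested genes called higher and 36.3% called lower. Of 9 tested epidermis markers 7 were higher and 2 lower (median log2 fold change 1.34), and their sum was 592 to 621 CPM in the controls and 1133 to 1221 CPM after exposure. The 2 lower ones were the cuticle collagens rol-6 and col-19. Of the epidermis markers, wrt-2 and grd-10 also belong to the ligands above, and elt-3 to the epidermal regulators. Of 4 tested glia markers 2 were higher and 1 lower, at sums of 16.3 to 19.4 and 25.3 to 26.6 CPM. All 4 were already counted above, ptr-10 in the patched family and kcc-3, vap-1 and fig-1 among the amphid glia genes. Neuron markers were higher in 8 of 9, at sums of 434 to 451 and 584 to 617 CPM. Body wall muscle markers were higher in 8 and lower in 1 of 10, at sums of 2603 to 2792 and 4010 to 4273 CPM, and pharynx markers in 7 and 1 of 9, at 174 to 198 and 514 to 573 CPM. Excretory system markers were higher in 4 and lower in 2 of 8, at 300.3 to 311 and 353 to 361 CPM. Intestine markers were higher in 6 and lower in 2 of 9, while their sum went down, from 31815 to 34040 CPM in the controls to 24815 to 27046 CPM. Embryo markers were higher in 4 and lower in 6 of 12, at 1856 to 1937 and 1479 to 1495 CPM, and sperm markers summed to 7.40 to 10.3 and 5.94 to 7.16 CPM with 2 tested. No list had a marker at 0 reads in all libraries. The part of these markers in the rises of the 8 genes was not tested.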

How the data were processed

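Poly(A)-enriched RNA of whole animals was sequenced in 6 libraries, grouped by the treatment label. The design text calls the replicates biological. Per the submitters' processing notes the tools included DESeq2 1.20.0, HISAT2 2.0.5, StringTie 1.3.3 and featureCounts 1.5.0-p3, while the design text names DEGSeq. The build and strandedness are not given in the sources used here. Genes of several lists overlap a gene on the opposite strand in the Ensembl annotation, among them dyf-7, lpr-3, strm-1, dhs-16, osm-8 and grl-22. Deposited by the authors were whole-number counts per gene and FPKM, per the file headers, and counts divided by a size factor per library, a signal not used in tests. The authors' deposited table also holds log2 fold changes and p-values. Gene length is the other deposited column.

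The deposited counts were tested in R 4.3.3 with edgeR 4.0.16: TMM scaling, filterByExpr, two-sided quasi-likelihood F test without covariates on all 6 libraries, Benjamini-Hochberg adjustment over 14705 genes, threshold 0.05. CPM use TMM-scaled library sizes. Standard errors are those that give the test's F. With 30 or fewer pooled reads in a group, a 95% exact (Clopper-Pearson) counting interval was computed, which covers counting error only. Alternatives were median-ratio scaling, library size only, DESeq2 1.42.0, no filter, limma 3.58.1 on log2 FPKM (pseudocounts 0.1, 0.5 and 1, and quantile-normalized; FPKM of 1 or more in 3 libraries), leaving out each library, the stricter threshold 0.01 and blocking on replicate number. On the log2(FPKM + pseudocount) scale the change of a low gene is understated. Tested on simulated data (14705 genes, this comparison), edgeR recovered 52%, 70%, 86% and 96% of genes changed 1.25-fold, 1.5-fold, 2-fold and 4-fold, with 16 false among 168 calls. The simulation changed only a small part of the genes, evenly up and down and with no shift by abundance. In the libraries 76.3% of tested genes were called, so these rates may not carry over.

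Members and lists were chosen with earlier results of these data known. All 10 members are named. From other lists the called genes with the largest changes are named, up to 3 each way (6 for the patched family and the ligands), and further genes singled out in the text were chosen after their values were seen. Symbols came from RefSeq locus tags. Of 61 listed ligands 58 were in the table by symbol. Coordinates are the deposited table's. For 9 of 10 members both ends lie within 200 bases of the Ensembl annotation of WBcel235, and for ptr-23 the starts differ by 2448 bases. Sequences were not used here. Figures were drawn with matplotlib 3.10.9.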

Additional observations from a re-analysis of the deposited data

How the results depend on the processing

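The 8 members called higher and 2 called lower stood at 8 and 2 with every edgeR and DESeq2 setting and every library left out, and at 7 and 2 on log2 FPKM with limma, where ptr-8 was not called (adjusted p = 0.0535, 0.0533 and 0.0529 with pseudocounts 0.5, 0.1 and 1, with log2 fold changes of 0.32, 0.33 and 0.30) and reversed to −0.17 after quantile normalization. Of 160 single-gene values under alternatives, 156 kept direction and call. Other patched family genes called higher went from 15 to 13 of 16 tested on log2 FPKM and to 9 of 16 with quantile normalization. Those called lower went from 2 to 1 with library size only. With 1 library left out, other patched family genes called higher and lower were 15 in every case and 2 to 3, and the ligands 33 to 35 and 3 to 4. Over all genes, calls were 52.4% higher in the main analysis and 67.9% with library size only, which raised the median log2 fold change by 0.19. On log2 FPKM (pseudocount 0.5) calls were 47.6% higher among 13917 genes, with the median lowered by 0.08. With quantile normalization of log2 FPKM, calls were 39.3% higher and the median was lowered by 0.16. With the replicate block, members stood at 8 and 2, other patched family genes at 15 and 2 and ligands at 34 and 4. The labels give same-numbered libraries of the 2 groups no link beyond the number. Over all tested genes their deviations from the group means correlated at 0.02, 0.01 and 0.01. Shared handling of such libraries was not tested. Depth limits the rarest genes: daf-6 rests on 22 to 56 control reads per library.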
